A study of Rattus norvegicus with 18 samples.

Results

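The established stage of a chemically induced colitis was described by setting the colon of rats 5 days after trinitrobenzene sulfonic acid (TNBS) against the colon of control rats. The rule took the 3 arrays labelled TNBS day 5 and the 6 control arrays, 9 of the 18 arrays of the series, by their labels alone. TNBS day 5 rats had received 10 mg TNBS in 50% ethanol by enema at day 0, and control rats a saline enema, for which no sampling day is given. Other rats were sampled 2, 7 and 14 days after the same TNBS enema (3 arrays each). RNA of the homogenised full-thickness colon was read on an Affymetrix whole-genome rat array, 1 array per replicate. The labels give no strain, sex or age.

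Several features limit the comparison. TNBS rats were picked at each time on inflammatory markers, among them body weight loss and myeloperoxidase, an enzyme of neutrophil granules, so neutrophil content was part of how these rats were chosen. No group received ethanol without TNBS, so the actions of ethanol and of TNBS cannot be told apart. Trizol is named as the extraction of every TNBS sample, whereas control samples cite just a manufacturer's manual and the study's design text gives Trizol for all, so a difference in extraction cannot be told apart from treatment. In a homogenate of the whole wall, fewer cells of a type and less RNA per cell cannot be told apart.

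TNBS is a hapten. Carried through the mucus by ethanol, it binds to proteins of the colon wall and sets off an inflammation in which neutrophils and monocytes enter first and lymphocytes and fibroblasts take part later. Tissue macrophages, epithelial cells and stromal cells that sense damage or bacteria activate the NF-kappaB transcription factors, which drive chemokines, interleukin-1 and prostaglandin enzymes. Surface colonocytes, which absorb sodium, chloride and butyrate, are among the cells exposed to the enema.

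Values are log2 expression after the 18 arrays were brought to a common distribution by quantile normalization, and an error after a plus-minus sign is the standard error (SE) of a linear model over all arrays, with 3 TNBS day 5 and 6 control arrays. Adjusted p is the Benjamini-Hochberg value of limma over 31042 probe sets, called under 0.05. At that threshold 3762 probe sets (12.1%) were higher on day 5 and 4493 (14.5%) lower. The balance between higher and lower calls was set by the scaling: 45.6% of calls were higher after quantile normalization, 98.7% as deposited and 22.7% after each array was centred on its median. The median difference over all probe sets was -0.02, 0.57 and -0.19 on those scales. A gene is therefore said to have risen or fallen only where it was called after quantile normalization and its difference had the same sign on the other 2 scales. That rule kept 3637 of the 3762 higher probe sets but 1597 of the 4493 lower ones. A list in which none fell can therefore still hold lower calls on the quantile-normalized scale. With 1 probe set per gene, 2028 of 14217 genes (14.3%) rose and 947 (6.66%) fell. The 3 day 5 arrays lay wholly above or below the 6 control arrays in 30.4% of genes, called or not.

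The day 5 arrays differed among themselves. The word rat is used below for the sample on an array, and samples of a group are told apart by replicate number alone. On the first principal component of the 18 arrays, which took 45.4% of the variance, day 5 replicates 1, 2 and 3 lay at 18.4, 69.5 and 31.9, against -52.3 to -38.6 for the control arrays. Replicate 2 lay farthest from control. Left out, it reduced the calls to 2418 higher and 2705 lower probe sets. The labelled tissue was recognisable: Epcam, an adhesion protein of epithelial cells, read 12.47, 11.86 and 12.48 on day 5, against 12.28 to 12.56 in control. Myh11, the myosin heavy chain of smooth muscle, was likewise among the bright genes in both groups.

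The largest rises included genes of neutrophils, of the chemokines that attract them and of interleukin-1. Cxcl2, a chemokine that draws neutrophils through the receptor CXCR2, read 11.01, 12.06 and 10.67 in the TNBS day 5 rats, against 3.28 (lowest), 3.41 (median) and 3.63 (highest) in the control rats. S100a9, a subunit of the neutrophil protein calprotectin, read 12.26, 13.25 and 12.09 on day 5, against 4.62, 5.25 and 5.61 in control. Its partner S100a8 read 10.46, 11.98 and 10.53, against 3.57, 3.71 and 3.92. These genes were chosen among those whose groups do not overlap, so that separation was set by the choice. Replicate 2 was the highest day 5 array in all of them. The differences were 7.80 ± 0.55 for Cxcl2 (a 223-fold difference, adjusted p = 4.65e-07), 7.37 ± 0.52 for S100a9 (adjusted p = 4.65e-07) and 7.27 ± 0.61 for S100a8 (adjusted p = 2.1e-06).

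Among 15 measured neutrophil-attracting chemokines and colony-stimulating factors 9 rose and none fell. The median difference of the list was 1.07, against -0.02 over all genes. Cxcl1, another ligand of CXCR2, read 8.97, 9.60 and 9.55 on day 5, against 3.19, 3.69 and 3.88 in control, a difference of 5.76 ± 0.45. Unlike Cxcl2 and the calprotectin genes, it varied little between the 3 day 5 rats. Csf3, the granulocyte colony-stimulating factor that releases neutrophils from marrow, read 4.56, 5.22 and 5.82, against 3.35, 3.52 and 3.61 (1.70 ± 0.29, adjusted p = 0.000719). Its receptor Csf3r rose by 4.01 ± 0.45. Cxcl6, a further neutrophil attractant, rose by 1.42 ± 0.32 (adjusted p = 0.00412).

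Interleukin-1 genes rose on both sides of the signal, the ligand and its brakes. Of 12 measured members of the family 9 rose and none fell, with a median difference of 1.47. Il1b, the main secreted ligand, read 11.09, 11.92 and 10.88 on day 5, against 4.95, 5.46 and 5.86 in control (5.89 ± 0.43, adjusted p = 7.23e-07). Il1r2, the decoy receptor that binds the ligand without signalling, read 8.97, 10.76 and 8.95, against 3.56, 4.03 and 4.25 (5.59 ± 0.63). Il1rn, the soluble receptor antagonist, read 5.65, 7.46 and 5.79, against 3.22, 3.43 and 3.55 (2.89 ± 0.33). Il1rn did not overlap with control on any array, and Il1r2 is among the largest rises, which were chosen without overlap. Il18bp, which neutralises interleukin-18, rose by 1.73 ± 0.17 (adjusted p = 7.94e-06).

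The interleukin-6 and TNF families with their feedback genes had the highest share of rises among the pathway lists: 20 of 26 measured members rose and none fell. On the quantile-normalized scale 2 members were called lower, but their sign turned on another scale. Nfkbiz, an inducible partner of NF-kappaB, rose by 2.78 ± 0.33 and Nfkb2, which encodes a subunit, by 1.53 ± 0.19. Nfkbia, the inhibitor that NF-kappaB induces against itself, averaged 10.90 ± 0.14 on day 5 (SD, n = 3), against 8.29 ± 0.38 in control (SD, n = 6), with no overlap between the groups (2.61 ± 0.33, adjusted p = 6.13e-05). Tnfrsf1b, a receptor for TNF, rose by 2.48 ± 0.29. The cytokines that give the list its name were less uniform. Il6 read 4.29, 6.78 and 4.76 on day 5, against 3.33, 3.40 and 3.50 in control, with the one high array in replicate 2. Its difference of 1.86 ± 0.53 (adjusted p = 0.0164) was no longer called without that array (adjusted p = 0.144). Tnf stayed dim, at 4.34, 4.21 and 4.29 against 3.70, 3.96 and 4.07. Its difference of 0.35 ± 0.12 was called (adjusted p = 0.0418) and was lost without any 1 of 8 of the 9 arrays, all but control replicate 5 (adjusted p up to 0.12).

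Promoters of some of these genes are shown because they carry the letters that NF-kappaB proteins or interferon-induced factors are known to bind. Each line is the 250 bases before the RefSeq start on assembly GRCr8, read 5′ to 3′ on the gene's strand, from chr14:17479322-17479571 (minus strand) for Cxcl1, chr6:78597073-78597322 (minus) for Nfkbia, chr20:4668544-4668793 (minus) for Tap1 and chr1:241527076-241527325 (plus) for Ifit3. Capitals mark the kappaB letters (GGGA, any base, TTTCC) or the letters of the interferon-stimulated response element (GAAA, any 2 bases, GAAA), on either strand.
Cxcl1: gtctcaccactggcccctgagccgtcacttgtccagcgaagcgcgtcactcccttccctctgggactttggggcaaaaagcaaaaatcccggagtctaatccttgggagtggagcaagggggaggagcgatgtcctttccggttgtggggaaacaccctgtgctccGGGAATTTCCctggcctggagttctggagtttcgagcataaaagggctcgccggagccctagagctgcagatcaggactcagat
Nfkbia: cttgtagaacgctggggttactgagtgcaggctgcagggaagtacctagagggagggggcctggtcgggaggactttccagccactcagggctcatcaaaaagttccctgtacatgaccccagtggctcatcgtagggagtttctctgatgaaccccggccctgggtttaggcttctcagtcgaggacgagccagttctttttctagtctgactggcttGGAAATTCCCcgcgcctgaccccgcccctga
Tap1: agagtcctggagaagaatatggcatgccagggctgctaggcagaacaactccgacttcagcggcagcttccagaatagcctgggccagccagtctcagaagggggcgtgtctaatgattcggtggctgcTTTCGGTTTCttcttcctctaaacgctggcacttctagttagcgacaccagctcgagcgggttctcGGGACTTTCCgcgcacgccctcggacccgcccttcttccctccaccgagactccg
Ifit3: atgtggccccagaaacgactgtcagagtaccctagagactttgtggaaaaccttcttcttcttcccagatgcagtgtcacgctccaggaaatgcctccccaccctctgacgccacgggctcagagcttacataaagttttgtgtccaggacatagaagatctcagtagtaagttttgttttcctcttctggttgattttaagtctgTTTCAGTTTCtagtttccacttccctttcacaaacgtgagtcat

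The kappaB letters begin 84 bases before the start in Cxcl1, 31 in Nfkbia (on the opposite strand) and 55 in Tap1. The response element letters begin 44 bases before the start in Ifit3 and 121 in Tap1, both on the opposite strand. In windows of this length the kappaB letters stood in 0.314% of 33469 RefSeq promoters, in 0.384% of 11733 promoters of genes measured here, in 14 of 1660 promoters of genes that rose (0.843%) and in 2 of 768 promoters of genes that fell (0.26%). The response element letters stood in 3.41% of all promoters, in 2.65% of those of genes measured here, in 3.61% of those of genes that rose and in 2.99% of those of genes that fell. Of the 10 largest rises among genes without overlap, 7 have a promoter in the table, and Cxcl1 alone holds the kappaB letters in this window. These are matches of letters, given as a description and not tested.

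Most markers of myeloid cells rose. Of 12 measured neutrophil markers 9 rose, and of 17 macrophage and monocyte markers 15 rose, with median differences of 2.20 and 1.96. Neither list had a member that fell. Plek, which encodes the protein kinase C substrate pleckstrin of platelets and leukocytes, read 10.29, 12.01 and 10.48 on day 5, against 4.08, 4.45 and 6.21 in control (6.24 ± 0.65). Tyrobp, the adaptor of activating receptors on myeloid cells, rose by 3.67 ± 0.38, and Lilrb4, an inhibitory receptor of the same cells, by 3.97 ± 0.50. Slfn4, a schlafen-family gene that is induced in mouse macrophages, read 10.89, 11.13 and 10.59, against 4.84, 5.16 and 6.11 (5.62 ± 0.49). Chi3l1, a chitinase-like glycoprotein secreted in inflamed tissue, rose by 3.74 ± 0.62.

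Within the macrophage list the calls covered genes linked to different activities. Clec10a, a galactose-binding lectin of tissue macrophages and dendritic cells, read 7.37, 7.55 and 7.25 on day 5, against 4.85, 5.22 and 5.40 in control. Its difference of 2.21 ± 0.15 had the same adjusted p as those of Cxcl2 and S100a9 (4.65e-07), and the 3 rats were alike. Gpnmb, a glycoprotein of lipid- and debris-laden macrophages, rose by 3.47 ± 0.37. C1qa, a chain of the complement recognition protein made by macrophages, rose by 2.01 ± 0.21. Fcgr3a, an Fc receptor, read 6.67, 5.74 and 6.40, against 4.28, 4.40 and 4.71 (1.83 ± 0.16), with replicate 2 the lowest day 5 array.

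Arginine handling in myeloid cells can pass through nitric oxide synthase or arginase. Arg1, the arginase, read 6.51, 8.83 and 7.10 on day 5, against 3.80, 4.19 and 4.79 in control (3.25 ± 0.58, adjusted p = 0.000873). Nos2, the inducible nitric oxide synthase, read 5.57, 5.98 and 5.53, against 4.88, 5.93 and 6.43. Its values lay inside the control range (-0.19 ± 0.27, adjusted p = 0.656). As deposited, its sign turned and it was called higher on day 5. Ass1, which recycles citrulline to arginine, rose by 1.72 ± 0.33. In the list of arginine and polyamine genes 6 of 19 rose and 2 fell. The falls, neither called as deposited (adjusted p = 0.539 and 0.473), were Ddah1 and Arg2, both lost without day 5 replicate 1 (adjusted p = 0.0798 and 0.0916) or replicate 3 (0.0736 and 0.199), and Arg2 also without control replicate 1, 2 or 3 (0.0701, 0.0695 and 0.0713).

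Monocyte chemokines rose in part. Of 30 measured mononuclear-cell chemokines and receptors 10 rose and 1 fell, with a median difference of 0.35. Ccl3, a chemokine for monocytes and T cells, read 9.42, 9.84 and 8.49 on day 5, against 3.90, 4.55 and 4.76 in control (4.78 ± 0.52). Ccl2, which recruits monocytes through CCR2, rose by 3.30 ± 0.56 and the related Ccl7 by 3.40 ± 0.52. The only fall was that of Cxcl12, the constitutive stromal chemokine that holds cells through CXCR4. It read 8.74, 8.63 and 8.05, against 9.09, 9.17 and 9.44 (-0.74 ± 0.17), and the call ended as deposited (-0.27, adjusted p = 0.115). Of its 3 probe sets 1 was called the other way.

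Few lymphocyte markers were called beside the myeloid ones. Of 14 T cell markers 1 rose and none fell, and of 11 B and plasma cell markers none rose and 1 fell. Over all genes 14.3% rose and 6.66% fell. Control replicate 2 was the highest control array on both list means, at 0.48 above the control mean for T cell markers. For B and plasma cell markers it lay 1.58 above, which widens the control spread. The riser was Cd6, a T cell surface receptor (0.83 ± 0.24, adjusted p = 0.0175), lost without day 5 replicate 1 (0.0774) or replicate 3 (0.0597). The fall was Jchain, which joins antibody units, at 9.76, 8.24 and 6.32 on day 5 against 9.40, 9.80 and 10.07 in control (-1.67 ± 0.53), lost without replicate 2 (adjusted p = 0.0735) or replicate 3 (0.229). Cd4, the helper T cell co-receptor, read 4.33, 4.36 and 4.37 on day 5, against 3.84, 4.14 and 4.21 in control (adjusted p = 0.0905). Among 25 measured T helper cytokines and receptors 6 rose and 1 fell (5 higher and 6 lower calls after median centring), and receptors were among the rises. Il4r, the receptor chain for interleukin-4 and interleukin-13, rose by 1.90 ± 0.23, and Il17ra, a receptor chain for interleukin-17, by 1.83 ± 0.26. Il10ra, the ligand-binding chain of the interleukin-10 receptor, rose by 1.56 ± 0.27. The ligands Ifng (3.21, 3.04 and 3.02, against 2.94, 3.03 and 3.08) and Il10 (3.16, 3.43 and 3.29, against 3.14, 3.18 and 3.21) were at the dim end of the array and were not called (adjusted p = 0.504 and 0.315). Il7, a stromal cytokine that maintains lymphocytes, was the 1 fall (-0.86 ± 0.18), and that call ended as deposited (adjusted p = 0.82).

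**Figure D1:**
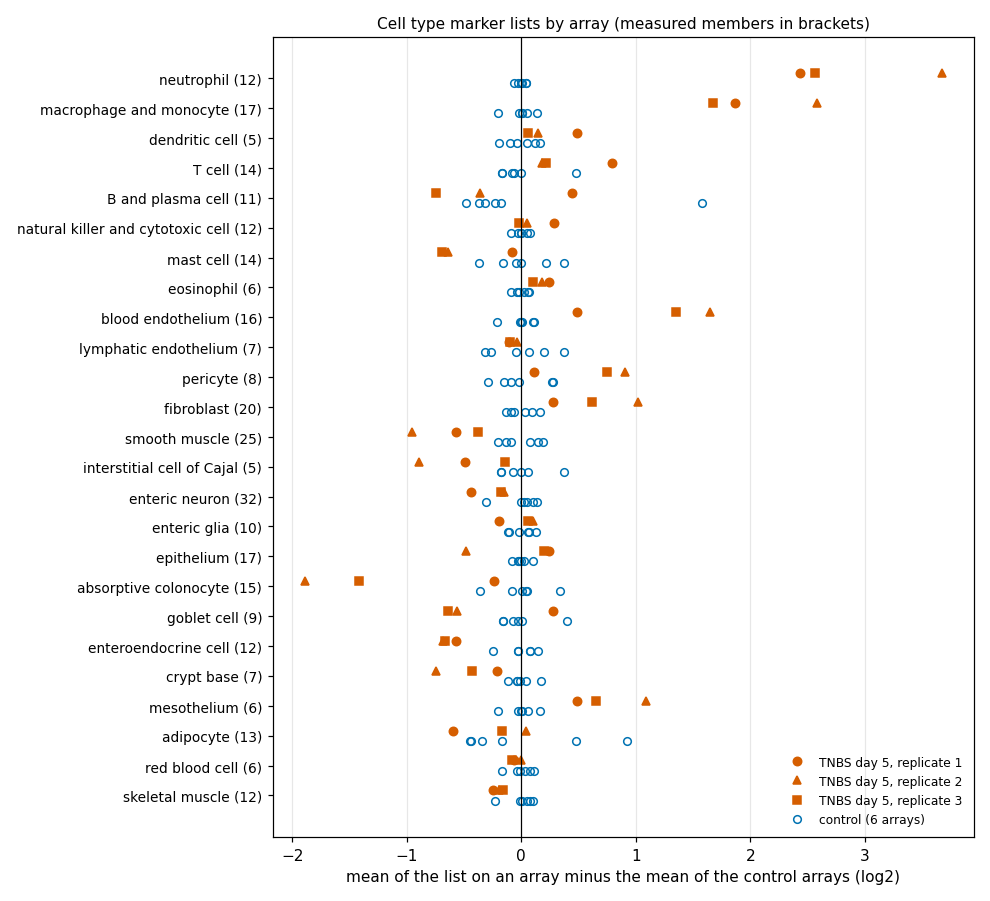
Mean log2 value of each cell type marker list on an array minus the mean over the control arrays (x axis), with TNBS day 5 replicates 1 (circle), 2 (triangle) and 3 (square) filled and the 6 control arrays open. Neutrophil markers lie 2.43 to 3.67 above control on day 5, and absorptive colonocyte markers at -0.24, -1.89 and -1.42.

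Averaged over their lists, genes induced by interferon and genes of antigen presentation rose with a different order among the rats, though single genes such as Ifit3 did not. Of 34 measured members of the interferon and class I antigen processing list 20 rose and none fell. Ifit3, an interferon-induced antiviral protein whose promoter is printed above, read 7.72, 8.17 and 7.48 on day 5, against 3.32, 3.39 and 3.46 in control (4.40 ± 0.37, adjusted p = 1.91e-06). Tap1, the peptide transporter that loads class I molecules, read 8.64, 7.54 and 8.62, against 5.28, 5.59 and 5.82 (2.71 ± 0.32). Irgm, an interferon-induced GTPase, showed the same order, at 7.91, 6.95 and 7.48 against 5.89, 5.94 and 6.12. Averaged over the list, replicates 1, 2 and 3 lay 1.45, 0.69 and 1.03 above the control mean, so replicate 2, highest for neutrophil genes, was lowest here.

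Class II antigen presentation followed that order on its list means, though Ifi30 did not. The list means lay 1.58, 0.45 and 1.24 above the control mean in replicates 1, 2 and 3, and the control arrays themselves spanned -0.43 to 0.77. Of 13 measured members 6 rose and none fell, and 3 rose when replicate 1 or replicate 3 was left out. Ifi30, the thiol reductase that unfolds antigens in lysosomes, read 10.75, 10.91 and 10.64 on day 5, against 8.36, 8.56 and 8.83 in control (2.22 ± 0.18, adjusted p = 1.42e-06). RT1-DMb, a chain of the molecule that loads class II peptides in the rat, rose by 1.84 ± 0.35. Cd40, the costimulatory receptor of antigen-presenting cells, rose by 1.81 ± 0.40. T cell markers were also highest in replicate 1, whose list mean lay 0.79 above control, against 0.18 and 0.22 in replicates 2 and 3. The control arrays spanned -0.17 to 0.48 on that list, so replicates 2 and 3 lay inside the control range.

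Some genes of bacterial sensing and host defence were among the strongest rises, with exceptions. Of 29 measured bacterial sensing and antimicrobial genes 16 rose and none fell. Lcn2, the lipocalin that withholds bacterial siderophores, read 8.47, 11.65 and 9.58 on day 5, against 3.54, 3.83 and 4.40 in control (6.05 ± 0.66). Slpi, an inhibitor of neutrophil elastase made by epithelium and leukocytes, read 12.51, 13.20 and 12.11, against 7.44, 8.23 and 9.02 (4.31 ± 0.45). Myd88, the adaptor of Toll-like and interleukin-1 receptors, rose by 1.06 ± 0.11. The epithelial lectin Reg3b read 4.26, 7.09 and 3.74, against 3.55, 4.44 and 6.83, and Reg3g 4.36, 5.89 and 3.78, against 3.46, 4.26 and 5.74. In both, replicate 2 lay just above the highest control array and the other day 5 arrays lay inside the control range, and neither was called (adjusted p = 0.905 and 0.912).

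Prostaglandin enzymes moved in both directions. Ptgs2, the inducible cyclooxygenase, read 8.96, 10.43 and 8.87 on day 5, against 3.66, 4.05 and 4.47 in control (5.35 ± 0.72, adjusted p = 0.000103). Pla2g2a, a secreted phospholipase with antibacterial action, read 12.09, 12.10 and 11.64, against 8.13, 8.55 and 9.23 (3.36 ± 0.31). Ptges, the terminal synthase of prostaglandin E2 downstream of Ptgs2, rose by 1.73 ± 0.35. Hpgd, which degrades prostaglandins, read 10.41, 8.87 and 9.42, against 10.40, 11.16 and 11.21. It fell (-1.48 ± 0.34, adjusted p = 0.00525) although replicate 1 touched the control range. In the whole list 9 of 29 rose and 2 fell, but after median centring the calls were 4 higher and 7 lower, with 4 of the 9 rises still called. The other fall was Hpgds, the prostaglandin D2 synthase of mast cells (-0.84 ± 0.17), and that call ended as deposited (adjusted p = 0.573).

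Oxidant and iron handling, complement and adhesion genes gave further rises. Hmox1, which breaks down heme, read 8.57, 9.91 and 9.38 on day 5, against 5.07, 5.95 and 6.11 in control (3.47 ± 0.34, adjusted p = 7.81e-06). Sod2, the mitochondrial superoxide dismutase, rose by 1.72 ± 0.26. Of 35 oxidant and iron genes 13 rose and 2 fell. The falls were Sod3, the extracellular dismutase (-0.99 ± 0.27, not called as deposited, adjusted p = 0.557), and Txn1, thioredoxin (-0.40 ± 0.13), which was lost without any day 5 array or control replicate 4 (adjusted p up to 0.12). C3, the central complement protein, read 8.71, 10.40 and 8.46, against 3.70, 4.28 and 4.44 (5.02 ± 0.58). A2m, a broad protease inhibitor of the rat acute phase, read 9.96, 9.04 and 9.27, against 4.24, 4.56 and 5.15 (4.80 ± 0.71). Serping1, the inhibitor of the first complement component, rose by 2.01 ± 0.22. Complement, coagulation and kinin genes rose in 16 of 35 cases with none falling, and in 10 without replicate 2.

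Most markers of blood endothelium rose on day 5, and those of other vessel cells did so less clearly. Of 16 measured markers of blood endothelium 13 rose and none fell, with a median difference of 1.25. Erg, a transcription factor of endothelial cells, read 5.37, 6.43 and 6.10 on day 5, against 4.10, 4.38 and 4.60 in control (1.60 ± 0.22). Tie1, an endothelial receptor kinase, rose by 1.92 ± 0.29. Plvap, which forms the diaphragms of fenestrated vessels, rose by 1.14 ± 0.18. Replicate 1 lay closest to control on the list mean, at 0.49 above it, against 1.65 and 1.35 in replicates 2 and 3. Among 21 leukocyte adhesion genes 12 rose and none fell, and 7 rose without replicate 2. Madcam1, the endothelial ligand for gut-homing lymphocytes, read 6.31, 6.47 and 7.15, against 4.33, 4.73 and 4.90 (1.98 ± 0.32). Icam1, a ligand for leukocyte integrins, rose by 1.81 ± 0.36. Of 8 markers of pericytes, the contractile cells around small vessels, 3 rose and none fell, and 1 rose without replicate 2 or replicate 3. Lymphatic endothelium had 1 rise and 1 fall among 7 markers, where 14.3% of all genes rose and 6.66% fell. Its list means of -0.11, -0.04 and -0.10 on day 5 lay inside the control range of -0.32 to 0.37. Pdpn, a glycoprotein of lymphatic cells and fibroblasts, rose by 1.53 ± 0.28, and Mmrn1, a secreted multimerin, fell (-1.32 ± 0.23, no longer called as deposited, adjusted p = 0.0576).

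Many matrix genes rose, with list means of 0.31, 1.13 and 0.72 above control in replicates 1, 2 and 3. Of 56 measured collagens and matrix genes 33 rose and 3 fell, with a median difference of 0.89. The count of rises was 17 without replicate 2 and 23 without replicate 3, and fibroblast markers rose in 10 of 20 cases. Col1a1, a chain of the fibrillar collagen of scar tissue, read 10.93, 12.38 and 11.38 on day 5, against 9.76, 9.82 and 10.02 in control (1.72 ± 0.39). Bgn, the small proteoglycan biglycan, read 9.25, 10.16 and 9.89, against 7.17, 7.49 and 7.83 (2.25 ± 0.20, adjusted p = 3.76e-06). Col18a1, a collagen of vessel basement membranes, rose by 2.00 ± 0.28. Other small leucine-rich proteins went the opposite way. Aspn, asporin, read 6.16, 6.31 and 6.32, against 8.55, 8.80 and 9.12 (-2.55 ± 0.35, adjusted p = 0.00013). Ogn, osteoglycin, fell with it (-1.85 ± 0.34). Aspn was alike in the 3 rats. Efemp1, the elastic-fibre protein fibulin-3, was also among the 20 largest falls without overlap between the groups (-2.20 ± 0.35).

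Some enzymes that cut matrix rose, and so did an inhibitor of them. Of 32 measured genes of metalloproteinases, inhibitors and the plasminogen system 15 rose and none fell, and 7 rose without replicate 2 and 10 without replicate 3. Mmp14, a membrane-bound protease, read 9.70, 10.94 and 10.32 on day 5, against 7.90, 8.27 and 8.58 in control (2.09 ± 0.22). Timp1, the inhibitor, read 10.30, 11.85 and 10.70, against 6.76, 7.68 and 9.25 (3.19 ± 0.53). Mmp9, the gelatinase of neutrophil granules, rose by 2.90 ± 0.51 and Adam8, a leukocyte protease, by 3.55 ± 0.48. Mmp13, a collagenase, differed most between rats, at 4.90, 6.90 and 8.41 against 3.76, 3.84 and 4.37. Its difference of 2.80 ± 0.73 was lost without replicate 3 (adjusted p = 0.0825). Mmp3, stromelysin, was not called (0.77 ± 0.48, adjusted p = 0.257). Spp1, the matrix cytokine osteopontin, read 6.10, 9.55 and 6.64, against 4.72, 4.86 and 5.10, and was lost without replicate 2 (adjusted p = 0.124).

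**Figure D2:**
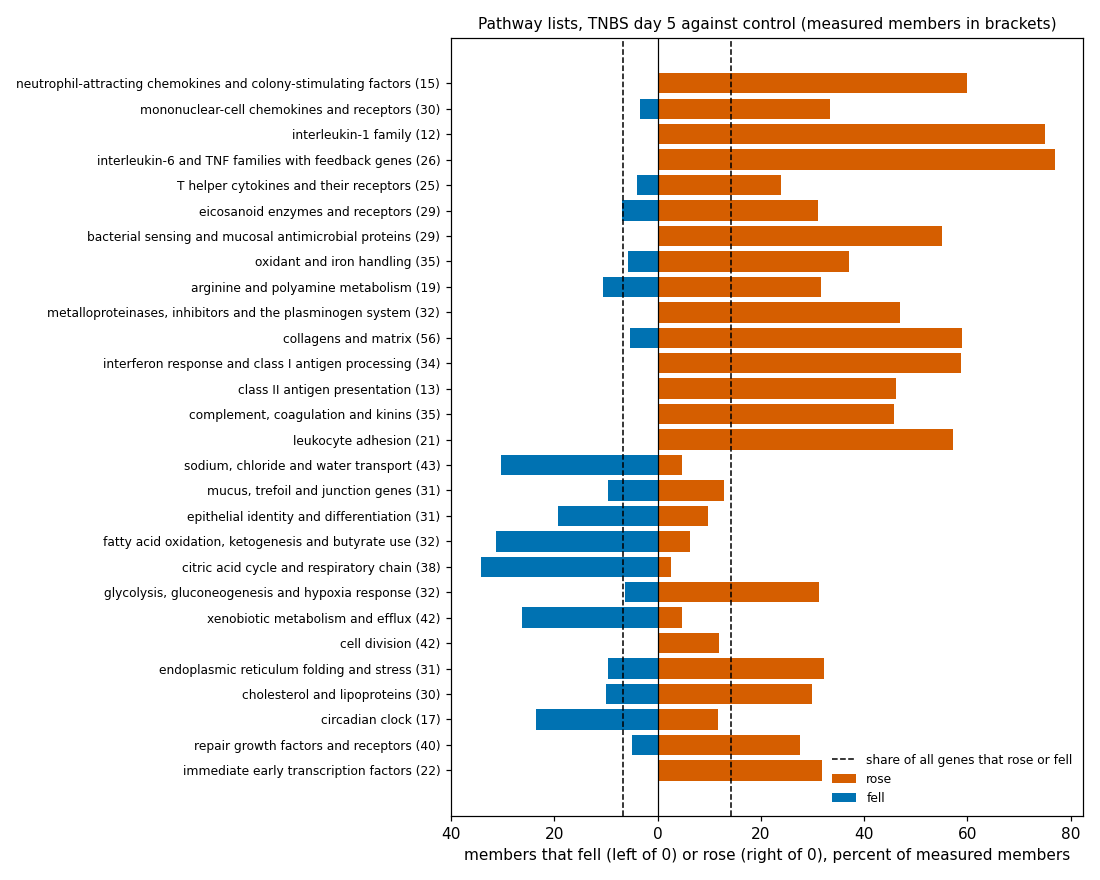
Share of the measured members of each pathway list that rose (right of 0) or fell (left of 0) on day 5 against control, with dashed lines at the shares over all genes, 14.3% and 6.66%. Interleukin-6 and TNF family genes reach farthest to the right with 20 of 26, and citric acid cycle and respiratory chain genes farthest to the left with 13 of 38.

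Repair and stress genes gave smaller changes. Of 40 growth factors and receptors 11 rose and 2 fell, and 6 rose without replicate 2 and 7 without replicate 3. The falls, Fgfr2 and Egf, were both lost without replicate 2 (adjusted p = 0.0744 and 0.141). Igf1, a growth factor for muscle and fibroblasts, read 8.24, 9.56 and 8.44 on day 5, against 5.70, 6.42 and 7.14 in control (2.34 ± 0.39), and Hbegf, a ligand of the epidermal growth factor receptor, rose by 0.79 ± 0.11. Of 31 genes of endoplasmic reticulum folding and stress 10 rose and 3 fell, against 6 higher and 9 lower calls after median centring. Ddit3, a transcription factor of prolonged folding stress, rose by 2.23 ± 0.37, whereas the chaperone Dnajb9 and the sensor kinase Eif2ak3 fell (-0.72 ± 0.15 and -0.80 ± 0.19, neither called as deposited, adjusted p = 0.857 and 0.554). In the list of immediate early transcription factors 7 of 22 genes rose, among them Egr1 (2.20 ± 0.47). Zfp36, a listed gene that rose too (2.21 ± 0.34), is no transcription factor but destabilises cytokine messages. Cell division genes rose in 5 of 42 cases, a share near that of all genes, and in 3 and 2 without replicate 1 and replicate 2. Mki67, a marker of cycling cells, was not called (0.45 ± 0.28, adjusted p = 0.263).

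Among genes whose groups did not overlap, the 20 largest falls included transporters and other apical proteins of the epithelium. Matrix and other genes such as Aspn and Efemp1 stood beside them. Slc9a3, the apical sodium/hydrogen exchanger of colonocytes, read 8.58, 5.40 and 5.40 on day 5, against 10.09, 10.72 and 11.10 in control (-4.21 ± 0.73, adjusted p = 0.000691). Apoa1, the apolipoprotein of high-density lipoprotein, read 5.99, 3.92 and 5.03, against 8.33, 9.70 and 10.17 (-4.49 ± 0.97). Amn, which anchors the vitamin B12 receptor, read 5.27, 4.51 and 4.64, against 7.01, 7.18 and 7.36 (-2.37 ± 0.22, adjusted p = 4.92e-06). These genes were chosen among those without overlap, so the separation of the groups was set by the choice. In all of them replicate 1 was the day 5 array closest to control. Car2, a carbonic anhydrase, followed that pattern, at 11.63, 9.69 and 9.49 against 11.83, 12.41 and 12.57 (-2.07 ± 0.51). Its call was lost without replicate 2 (adjusted p = 0.0506) or replicate 3 (0.0514).

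Ion and water transport gave 13 falls and 2 rises among 43 measured genes. The median difference was -0.51 and turned to 0.01 as deposited, where 9 of the 13 falls were still called. Without replicate 2 or replicate 3 the falls numbered 4 and 7. Slc12a2, the basolateral cotransporter that feeds chloride secretion, read 10.04, 10.16 and 9.74 on day 5, against 10.94, 10.98 and 11.16 in control (-1.03 ± 0.18). It did not depend on any single rat. Slc26a3, the chloride/bicarbonate exchanger of surface colonocytes, read 10.91, 9.64 and 9.26, against 11.07, 11.41 and 11.82 (-1.50 ± 0.42), and its call was lost without replicate 2 (adjusted p = 0.0724) or replicate 3 (0.0929). Aqp8, a water channel of the same cells, read 8.13, 5.32 and 8.31, against 6.24, 7.34 and 7.78, and was not called (adjusted p = 0.969). Slc26a6, another anion exchanger, rose by 0.86 ± 0.15.

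Absorptive colonocyte markers had the widest spread between the 3 rats among the 25 cell type lists, with list means of -0.24, -1.89 and -1.42 relative to control. Of 15 markers none rose and 4 fell, and 1 fell without replicate 2. All 4 falls were also called as deposited. Tmigd1, an adhesion protein of the brush border, read 9.33, 5.33 and 4.21 on day 5, against 8.14, 9.83 and 10.19 in control. Replicate 1 lay inside the control range and the other rats far below it, and the call (-3.29 ± 0.96, adjusted p = 0.019) was lost without replicate 2 (0.0998) or replicate 3 (0.134). Car1, a colonocyte carbonic anhydrase, had the same order, at 13.04, 11.19 and 10.06 against 12.14 (lowest) to 13.28 (highest), and was not called (adjusted p = 0.0514). Guca2a, guanylin, read 12.41, 10.31 and 11.36, against 12.89, 13.09 and 13.20 (-1.70 ± 0.42, lost without replicate 2, adjusted p = 0.0693). General epithelial markers changed less: of 17 measured 1 rose, the claudin Cldn7, and 1 fell, the membrane protease St14. Cldn7 was lost without replicate 1 or replicate 3 (adjusted p = 0.166 and 0.0617) and St14 without replicate 2 (0.141).

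Goblet and enteroendocrine genes were read beside them. Muc2, the gel-forming mucin of goblet cells, read 13.07, 12.36 and 12.46 on day 5, against 13.01, 13.16 and 13.32 in control (-0.53 ± 0.23, adjusted p = 0.107). Tff3, the goblet cell trefoil peptide, was not called either (-0.19 ± 0.15, adjusted p = 0.41). Among 9 goblet markers 2 fell and none rose, and 1 fell without replicate 2 or replicate 3. Of 12 enteroendocrine markers 4 fell and 1 rose, and the list mean lay 0.57, 0.68 and 0.67 below control in replicates 1, 2 and 3. The list median of -0.54 turned to 0.18 as deposited, where 1 of the 4 falls was called. Chgb, chromogranin B of hormone granules, read 7.25, 4.71 and 5.59, against 7.72, 8.31 and 8.91 (-2.41 ± 0.59, lost without replicate 2, adjusted p = 0.0621). Pyy, peptide YY of distal L cells, fell (-0.99 ± 0.22, not called as deposited, adjusted p = 0.21). Cck, cholecystokinin, went the other way (0.93 ± 0.20, adjusted p = 0.00304). In the list of epithelial identity and differentiation 6 of 31 genes fell and 3 rose, with 2 and 3 falls without replicates 2 and 3, and the median of -0.37 turned to 0.06 as deposited. Anpep, the brush border aminopeptidase that myeloid cells also carry, rose by 2.56 ± 0.45, and Slc15a1, the peptide transporter of small intestine, by 1.21 ± 0.28. Lgr5, the receptor of crypt stem cells, fell (-0.77 ± 0.16, not called as deposited, adjusted p = 0.645).

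Genes of energy metabolism moved in both directions. Of 38 citric acid cycle and respiratory chain genes 13 fell and 1 rose, with a median difference of -0.29 that turned to 0.06 as deposited, where 3 of the 13 falls were called. Cox6a1, a subunit of cytochrome oxidase, read 11.21, 11.14 and 11.25 on day 5, against 11.89, 12.01 and 12.17 in control (-0.82 ± 0.08, adjusted p = 5.26e-06). The 3 rats differed little from one another. Pdhb, a subunit of pyruvate dehydrogenase, fell too (-0.83 ± 0.14). Cyc1, cytochrome c1 of complex III, was the single rise, at 10.87, 10.62 and 10.71 against 9.90, 10.00 and 10.09 (0.73 ± 0.13), and was no longer called after median centring (adjusted p = 0.0698).

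Colonocytes burn butyrate through beta-oxidation, and 10 of 32 genes of fatty acid oxidation and butyrate use fell while 2 rose. The median difference was -0.49 and turned to 0.03 as deposited, where 2 of the 10 falls were called. The falls numbered 6 without replicate 2. Acadm, the medium-chain acyl-CoA dehydrogenase, read 9.34, 8.55 and 9.05 on day 5, against 9.96, 10.11 and 10.32 in control (-1.16 ± 0.21). Cpt2 and Slc25a20, which bring long-chain fatty acids into mitochondria, rose instead (1.05 ± 0.23 and 0.49 ± 0.11). Pck1, the gluconeogenic carboxykinase, read 9.19, 7.56 and 8.53, against 10.15, 10.71 and 11.16 (-2.23 ± 0.43). Glycolysis and hypoxia genes rose in 10 of 32 cases and fell in 2, against 8 higher and 9 lower calls after median centring. Hk2, an inducible hexokinase, read 7.11, 6.68 and 7.79, against 4.93, 5.31 and 5.68 (1.90 ± 0.31), and Slc2a3, a high-affinity glucose transporter, rose by 2.44 ± 0.40.

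Detoxifying, lipid and clock genes completed the metabolic picture. Of 42 xenobiotic genes 11 fell and 2 rose (none without replicate 2), with a median of -0.35 that turned to 0.32 as deposited, where 3 falls were called. The falls numbered 3 without replicate 2 and 4 without replicate 3. Sult1c2a, a sulfotransferase, read 7.61, 5.87 and 6.45 on day 5, against 8.39, 8.62 and 8.86 in control (-1.97 ± 0.35). Aldh1a1, which makes retinoic acid, fell as well (-1.94 ± 0.44). Cholesterol and lipoprotein genes rose in 9 of 30 cases and fell in 3, or in 1 without replicate 2 or replicate 3. Apoe, an apolipoprotein that macrophages secrete, read 9.58, 11.73 and 10.10, against 7.03, 7.88 and 9.07 (2.54 ± 0.51), opposite to Apoa1. Among 17 clock genes 4 fell and 2 rose, and 1 fell without replicate 2 and 1 rose without any 1 of the day 5 arrays. The median of -0.25 turned to 0.51 as deposited. The clock repressor Nr1d1 fell (-1.64 ± 0.36) and Nfil3 rose (1.56 ± 0.30), and the hour of sampling is not given.

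Muscle and nerve of the outer wall were read in the same homogenate. Of 25 smooth muscle markers 10 fell and 1 rose, and 9 of the falls were also called as deposited. Tagln, the actin-binding protein transgelin, read 11.83, 11.66 and 12.14 on day 5, against 12.90, 13.02 and 13.20 in control (-1.16 ± 0.17, adjusted p = 0.000185). Smtn, smoothelin of contractile cells, read 8.67, 7.62 and 8.82, against 9.68, 10.03 and 10.78 (-1.73 ± 0.29). Myh11 fell by less (-0.96 ± 0.21), and Acta2, smooth muscle actin, was not called (-0.53 ± 0.30, adjusted p = 0.208). Of 32 enteric neuron markers 6 fell and 1 rose, and 1 of the 6 falls was called as deposited, where the median of -0.14 turned to 0.51. Scg2, a granin of neurons, fell (-1.70 ± 0.34) and so did Stmn3, a stathmin (-1.05 ± 0.15, not called as deposited, adjusted p = 0.248). Vip, the relaxant neuropeptide of enteric motor and secretomotor neurons, was the rise (1.56 ± 0.46), and was lost without replicate 2 (adjusted p = 0.114) or replicate 3 (0.0868). Nos1, the neuronal nitric oxide synthase, was not called (0.16 ± 0.10, adjusted p = 0.233).

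Mast cell and mesothelial markers moved as well. Of 14 mast cell markers 4 fell and 1 rose, with 2 falls without replicate 2 and 1 without replicate 3. The median of -0.26 turned to 0.32 as deposited. Mcpt1, a protease of mucosal mast cells, read 8.22, 5.33 and 5.38 on day 5, against 7.04, 8.52 and 9.70 in control. Replicate 1 lay inside the control range, and the call (-2.16 ± 0.61) was lost without replicate 2 (adjusted p = 0.11) or replicate 3 (0.098). Cma1, the chymase of connective tissue mast cells, was the rise (0.61 ± 0.15, lost without replicate 1, adjusted p = 0.0626). Of 6 mesothelium markers 4 rose and 2 rose without replicate 2 or without replicate 3. Msln, mesothelin of the serosal lining, read 5.35, 6.17 and 5.08, against 3.68, 3.93 and 4.15 (1.60 ± 0.26), and the transcription factor Wt1 rose by 1.07 ± 0.18. None of 6 red blood cell markers rose or fell.

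Day 5 was then set against the other days, a contrast with no control array. Against day 2, 4 probe sets were higher (0.0129%) and 0 lower (0%, limma, with 1527 lower at an unadjusted p under 0.05). Ifit3 read 7.72, 8.17 and 7.48 on day 5, against 3.85, 4.58 and 4.25 on day 2 (3.57 ± 0.42, adjusted p = 0.00459). Fcgr3a read 6.67, 5.74 and 6.40, against 4.42, 4.81 and 4.68 (1.63 ± 0.18, adjusted p = 0.00459). Neither call depended on any 1 array of these days. Micall2, a regulator of junction trafficking, was the other named gene (1.36 ± 0.21, adjusted p = 0.0458), and its call was lost without day 5 replicate 3 or day 2 replicate 2 or 3 (adjusted p up to 0.196). Without day 5 replicate 1 the counts were 53 and 11, and over all 6 arrays left out 2 to 53 and 0 to 11.

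Against day 7, 0 probe sets were higher (0%, with 1195 at an unadjusted p under 0.05) and 5 lower (0.0161%). Ccl9, a chemokine for monocytes in rodents, read 4.93, 4.75 and 5.54 on day 5, against 8.96, 8.26 and 7.96 on day 7 (-3.32 ± 0.35, adjusted p = 0.00139). It had risen by 1.38 ± 0.30 against control. The genes named here were chosen among those whose arrays of the 2 days do not overlap. Itga8, an integrin chain of smooth muscle and fibroblasts, was also lower than on day 7 (-0.99 ± 0.13), lost without day 5 replicate 3 (adjusted p = 0.055). Without day 5 replicate 2 the counts were 51 and 36, and with weights on the arrays 140 and 91.

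Day 14 lay farther off: 185 probe sets were higher on day 5 (0.596%) and 58 lower (0.187%). Cxcl2 read 11.01, 12.06 and 10.67 on day 5, against 5.28, 4.30 and 3.55 on day 14 (6.87 ± 0.64, adjusted p = 0.000153). Il1b differed by 4.77 ± 0.50, Il1r2 by 5.25 ± 0.73 and S100a8 by 5.13 ± 0.71. These 4 calls held whichever array of the days was left out. By list, 9 of 17 macrophage markers, 8 of 29 antimicrobial genes, 6 of 12 interleukin-1 genes and 5 of 12 neutrophil markers were higher on day 5 than on day 14. Of 56 collagens and matrix genes 4 were, with a median difference of 0.82. Over all genes it was 141 of 14217. These list counts were not repeated with an array left out. Among the genes lower on day 5, Amn read 5.27, 4.51 and 4.64, against 6.84, 6.45 and 6.37 (-1.75 ± 0.25, adjusted p = 0.00574), and kept its call without any array. Slc9a3 (-3.86 ± 0.84) and Chgb (-3.14 ± 0.68) were lower too, each losing its call without any array but day 5 replicate 1 (adjusted p up to 0.225 and 0.226). Edn2, endothelin-2, a peptide that contracts smooth muscle, was lower by a smaller step (-1.97 ± 0.31) and was lost without day 5 replicate 2 or day 14 replicate 1 (0.0559 and 0.0567). The counts depended on the rats: 664 and 351 when day 5 replicate 1 was left out, 31 and 1 when replicate 2 was, 100 and 13 when replicate 3 was, and 36 to 43 and 2 to 16 when a day 14 array was.

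**Figure D3:**
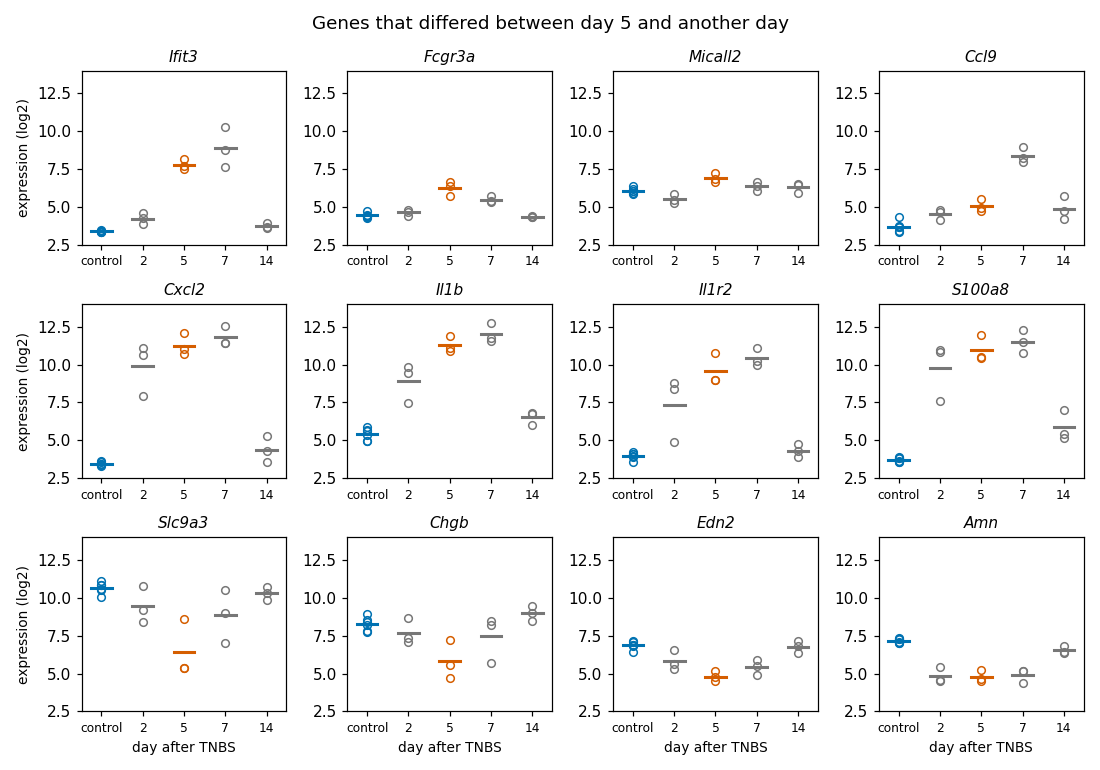
Log2 expression of 12 genes that differed between day 5 and another day, in control and on days 2, 5, 7 and 14 after TNBS (x axis), with each array as a circle and the group mean as a bar. Ifit3 lies at 7.48 to 8.17 on day 5 and 3.85 to 4.58 on day 2, and Ccl9 at 4.75 to 5.54 on day 5 and 7.96 to 8.96 on day 7.

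RNA quality probes moved with the groups in opposite directions. The 3 prime minus 5 prime difference of Gapdh was 0.64, 0.69 and 0.76 on day 5, against -0.19, 0.04 and 0.19 in control. That of beta-actin was 1.35, 1.41 and 1.36, against 1.82, 2.04 and 2.22. Each differed by an exact permutation of the arrays (two-sided p = 0.0238, which is the lowest value 3 against 6 arrays can give), and its part in the differences above was not tested.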

How the data were processed

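The values are log2 expression per probe set, normalized by the authors with the affyPLM package per the labels' design text. Its version, its settings and the log base are unstated in those labels, and log2 was taken from the range of the deposited values. Of 31099 probe sets, 57 array controls were left out. The 18 arrays were quantile-normalized, and limma 3.58.1 (R 4.3.3) fitted 1 coefficient per group, with eBayes and Benjamini-Hochberg adjustment over 31042 probe sets. A gene was read from its brightest single-symbol probe set (14217 genes, platform annotation). The text's genes come from the 20 largest non-overlapping changes each way, up to 4 genes by p and 2 opposite per list, a panel of colitis genes, and up to 4 each way per pair of days. Members and the 53 lists were chosen with earlier results of these data known. Nothing says that replicates are more than separate samples, so p-values measure the spread between these samples. Promoters are from RefSeq. The fit was tested on simulated data. Array number limits precision.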

Additional observations from a re-analysis of the deposited data

Results flagged for a closer look

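In 15 of 149 control groups of named genes, 1 of the 6 control arrays lay far from the nearest other by Dixon's test at its 95% critical value of 0.625, a rule that flags some groups by chance at a rate of 5%. Control replicate 5 was the lowest array for Car2 (11.83), Hpgd (10.40), Stmn3 (6.07), Scg2 (6.16) and Tmigd1 (8.14) and the highest for Nfkb2 (6.48). Control replicate 1 was the highest for Slfn4 (6.11) and Col1a1 (10.02) and the lowest for Hmox1 (5.07) and Cma1 (3.72). Control replicate 2 was the highest for Plek (6.21) and the lowest for Cd4 (3.84), control replicate 4 the highest for Efemp1 (8.52), and control replicate 6 the highest for Nfkbiz (7.60) and Vip (8.47).

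For 13 named genes the change on day 5 differed from that on another day in the limma fit. Against day 2 the difference was 3.57 for Ifit3, 1.63 for Fcgr3a and 1.36 for Micall2. Against day 7 it was -3.32 for Ccl9 and -0.99 for Itga8. Against day 14 it was 6.87 for Cxcl2, 5.25 for Il1r2, 5.13 for S100a8, 4.77 for Il1b, -1.75 for Amn, -1.97 for Edn2, -3.14 for Chgb and -3.86 for Slc9a3.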

How the results depend on the processing

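The scaling of the arrays moved the counts against control most: deposited values gave 25104 higher and 340 lower probe sets, and median centring 11149 lower. With 1 probe set per gene they were 2131 and 2407, and at an adjusted p under 0.01 they were 2113 and 2281. Leaving out 1 array at a time gave 2418 to 3624 higher and 2705 to 4301 lower. Same-numbered samples deviated together in some pairs and not in others (correlations of -0.31 to 0.47, over pairs with a day 5 array). Whether the numbers share more than a name is not given, and these few pairs cannot decide it. With the replicate number as a block, 2655 probe sets were higher and 2989 lower than in control. Between days that fit gave 1 higher than on day 2, 2 higher and 3 lower than on day 7, and 23 higher and 4 lower than on day 14.

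Counts between days were small and moved with the choices below. Array weights gave 7 higher and 1 lower against day 2, 140 and 91 against day 7, and 548 and 334 against day 14. Leaving out the lowest 50% of probe sets gave 1 lower than on day 7, and 310 higher and 129 lower than on day 14. Median centring gave 95 lower than on day 14, and it, deposited values and a robust trended fit each gave 1 higher than on day 7. At an adjusted p under 0.01 the counts were 2 higher than on day 2, and 23 higher and 1 lower than on day 14. Leaving out 1 array gave 2 to 53 higher and 0 to 11 lower for day 2, 0 to 51 and 4 to 36 for day 7, and 31 to 664 and 1 to 351 for day 14. The cause of these shifts was not tested.

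Of 149 named genes, deposited values kept the call, or the lack of one, in 125, and the block in 127. A gene called in neither fit counted as kept even where its sign turned. Among genes called in either fit, the sign turned for Nos2 (0.65) and Itga8 (0.10 against control) as deposited and for Ifng (-0.25) after median centring. Leaving out 1 array gave Gapdh 3 prime minus 5 prime differences of 0.62 to 0.70 and beta-actin differences of -0.68 to -0.60. With a day 5 array left out, too few arrays remained for the exact test to fall under 0.05 whatever the values. With 3 arrays on day 5, small differences could go undetected.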
